A study of Mus musculus with 12 samples.

Results

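Laminin, collagen IV and the proteins that bind them form the basement membrane, the thin matrix sheet under epithelia. The genes described here are 10 of its components: the laminin chains Lama1, Lama5, Lamb1 and Lamc1, the collagen IV chains Col4a1 and Col4a2, the linker proteins Nid1 and Nid2, the proteoglycan Hspg2 and the matrix glycoprotein Sparc. They were taken by symbol from the platform annotation, which gave 22 probe sets out of 45037 tested and 10 genes out of 18193. Of these probe sets 19 had a mean above the background level, and each gene had at least 1 of them. Where a gene had several, its brightest on average over the 12 arrays is given first, and others are named where their calls differ.

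The samples were F9 cells, a mouse teratocarcinoma line, either wild type (WT) or labelled as RAR gamma knockout (KO, the gene Rarg). Each was kept for 24 h in ethanol as the vehicle (WT_vehicle, KO_vehicle) or in 1 µM retinoic acid (WT_RA, KO_RA), with 3 arrays in each of the 4 groups. All groups share the same line and the same serum-containing medium. How the knockout cells were made, and whether they are 1 clone or several, is not given in the sources used here. The titles code 8 samples by a number and 4, 1 of each group, by a letter, and the letter-coded arrays (replicate 3 of every group) went through the fluidics station together as run 1. Run and set of samples can therefore not be told apart. Runs 2 and 3 held the number-coded arrays.

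Laminin is a trimer of an alpha, a beta and a gamma chain, and laminin-111, an early laminin of the mouse embryo, joins the products of Lama1, Lamb1 and Lamc1. Collagen IV trimers of the Col4a1 and Col4a2 chains form a second network, nidogens link the networks, and perlecan, the product of Hspg2, binds to both. F9 stem cells turn into endoderm under retinoic acid (RA), and endoderm of the parietal kind is a classical source of laminin and collagen IV in large amounts. Rarg encodes a nuclear receptor for RA.

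Array values are MAS5 signals, on which the authors had put every array to the same trimmed mean. The median signal was between 71.3 and 94.9 on 11 arrays and 143 on KO_vehicle replicate 3, which also waited longest before the scan (316 min, against 13 to 238 min). Chips came from 2 lots, here A and B. Lot B held KO_vehicle replicates 1 and 2, KO_RA replicate 1 and WT_RA replicate 3, and lot A the rest. All number-coded WT arrays were thus of lot A, and most number-coded KO arrays of lot B. The part of the lot in the differences was not tested. Ratios of 3' to 5' control probe sets lay between 0.771 and 0.865 for Gapdh and between 1.21 and 1.36 for Actb. Rarg, the targeted gene, had signals between 1026 and 1809, and KO minus WT was 0.16 (SE 0.19, limma adjusted p = 0.733) in vehicle and 0.12 (adjusted p = 0.885) in RA. Its RNA signal was thus not lower under the knockout label. Where its probes lie relative to the disrupted part is not known here, so KO below means arrays labelled knockout. Precision is limited by the number of arrays. The sources do not say whether the 3 arrays of a group stem from separate cultures. A p value here is therefore set against differences between arrays that may be technical.

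The comparison of KO with WT asks which transcripts differ with the genotype label, in vehicle and in RA. Most basement membrane genes were lower in KO. By limma 4 of the 10 genes fell in vehicle, Lama1, Lamb1, Col4a2 and Nid1, where 4.01 percent of all 18193 genes fell, and 0 rose, where 2.41 percent of all genes rose. The same 4 fell in RA, where 4.28 percent of all genes fell and 3.26 percent rose. The arrays of KO and WT did not overlap for 8 of the 10 genes in vehicle (11.5 percent of all genes, KO lower) and for 7 in RA (16 percent). KO lay wholly above WT for 0 of 10 in both media (12.5 and 12.4 percent of all genes). With the run as a block 8 of 10 fell in vehicle, against 7.77 percent of all genes, and 8 in RA, against 7.78 percent, and 0 rose (5.78 and 6.76 percent of all genes). Over the 10 genes the median log2 difference was -1.12 in vehicle, where that of all genes was 0.13. In RA the members' median was -1.17 and that of all genes -0.05. By the brightest probe sets, 9 of the 10 genes had a lower signal in KO within runs 1, 2 and 3 alike, in both media. Lama5 alone had a higher one.

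**Figure D1:**
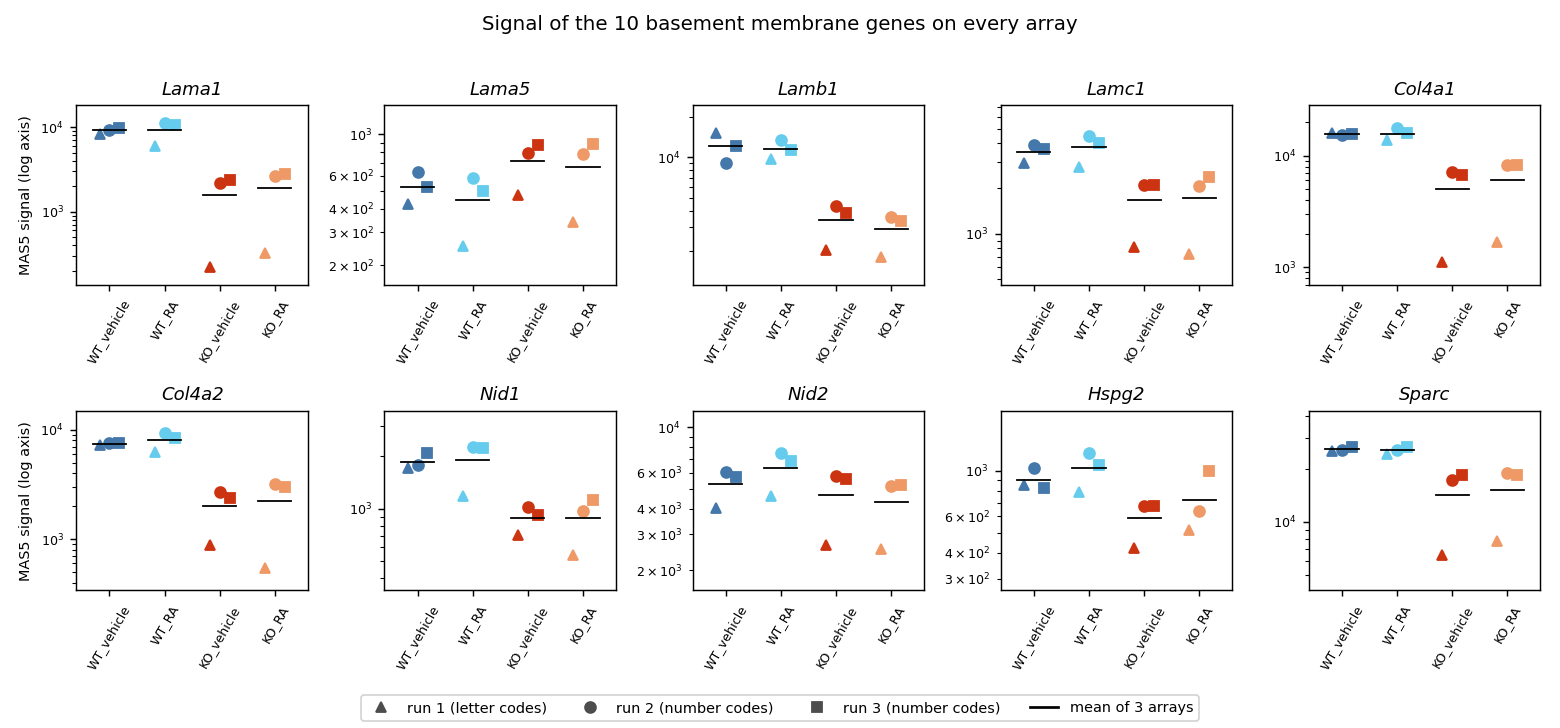
MAS5 signal (log axis, a different range in each panel) of the 10 genes on the 12 arrays by group. Symbols mark the fluidics run and black lines the means of 3 arrays. For Lama1, Lamb1, Lamc1, Col4a1, Col4a2, Nid1 and Sparc each KO array lies below each WT array, and the run 1 arrays of KO lie lowest.

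Lama1 encodes the alpha 1 chain, which carries cell-binding parts of laminin-111. Its signal was 9260, 9808 and 8390 in WT_vehicle replicates 1, 2 and 3 and 11298, 10620 and 5961 in WT_RA. In KO_vehicle it was 2190, 2346 and 219, and in KO_RA 2645, 2795 and 326. The groups of WT and KO did not overlap, and the letter-coded replicate 3 was far below the other KO arrays in both media. KO minus WT was -3.10 in vehicle (SE 0.75, adjusted p = 0.0235, or 1.17e-05 when blocked by run) and -2.71 in RA (SE 0.75, adjusted p = 0.0445, 4.73e-05 blocked). The changes are log2 differences of signal + 16, which makes those of low signals smaller than they are. In vehicle runs 1, 2 and 3 gave -5.16, -2.07 and -2.06, and in RA they gave -4.13, -2.09 and -1.92. The wild-type means, 9153 ± 715 (SD, n = 3) in vehicle and 9293 ± 2906 in RA, differed by less than their spread, as did 1585 ± 1186 and 1922 ± 1384 in KO.

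Lamb1 encodes the beta 1 chain and is a classical late RA target of F9 cells, with a retinoic acid response element known further upstream than the promoter window used here. It gave 9005, 12200 and 15154 in WT_vehicle and 13383, 11342 and 9642 in WT_RA. KO_vehicle had 4372, 3818 and 2046, and KO_RA 3575, 3356 and 1803. Every KO array was lower than every WT array. The difference was -1.86 in vehicle (SE 0.28, adjusted p = 0.000747) and -2.02 in RA (SE 0.28, adjusted p = 0.000261). In vehicle the separate runs lay between -1.04 and -2.88, and in RA between -1.75 and -2.41. Among the 10 genes Lamb1 had the smallest adjusted p in both media. It was also the 1 gene of the 10 that passed in each fit leaving out 1 array. Of its 3 other probe sets the pair above background also passed in both media, with differences between -1.75 and -2.12. The last one, whose mean lay below background, had -1.29 and -1.57 (adjusted p = 0.209 and 0.105).

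Lamc1 supplies the gamma 1 chain, which carries the nidogen-binding site of laminin. Signals were 3889, 3669 and 2949 in WT_vehicle and 4460, 4027 and 2768 in WT_RA. They were 2113, 2097 and 809 in KO_vehicle and 2084, 2390 and 732 in KO_RA. The groups did not overlap, and replicate 3 was the lowest array in each of them. In the 4-group fit its differences of -1.17 (SE 0.38, adjusted p = 0.103) and -1.25 (adjusted p = 0.0755) did not pass, while with the run as a block they did (0.000133 and 5.33e-05). Its other probe set passed in both media without the block, with -1.30 (adjusted p = 0.00299) and -1.29 (adjusted p = 0.00235).

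Lama5 encodes the alpha 5 chain, which takes the place of alpha 1 in laminin-511. In WT_vehicle it gave 628, 522 and 427 and in WT_RA 584, 501 and 253. In KO_vehicle it gave 798, 879 and 473 and in KO_RA 780, 889 and 340. The number-coded KO arrays were thus above all WT arrays, and the letter-coded KO arrays lay within the WT range. KO minus WT was 0.41 in vehicle (SE 0.35, adjusted p = 0.621, 0.204 blocked) and 0.54 in RA (adjusted p = 0.556, 0.0698 blocked), so Lama5 did not pass. Its brighter other probe set had 0.30 and 0.48 (adjusted p = 0.776 and 0.716). In vehicle that probe set was lower in KO in run 1 (-0.86) and higher in runs 2 and 3 (0.90 and 0.87).

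The promoter windows of Lamb1 (GRCm38.p6, chr12:31265043-31265342, plus strand) and of Lama5 (chr2:180225810-180226109, minus strand) are shown because these laminin genes differ in how they stood in KO. They were placed from 250 bases before to 50 after a start. That start lies downstream of the annotated gene start, which is 31265146 for Lamb1 and 180225904 for Lama5. More than 50 bases of each window thus lie after the gene start. The sequences are RefSeq's, 5′ to 3′, and capitals mark GGGCGG or its reverse complement CCGCCC, a motif bound by Sp1, and CCAAT or ATTGG.
Lamb1: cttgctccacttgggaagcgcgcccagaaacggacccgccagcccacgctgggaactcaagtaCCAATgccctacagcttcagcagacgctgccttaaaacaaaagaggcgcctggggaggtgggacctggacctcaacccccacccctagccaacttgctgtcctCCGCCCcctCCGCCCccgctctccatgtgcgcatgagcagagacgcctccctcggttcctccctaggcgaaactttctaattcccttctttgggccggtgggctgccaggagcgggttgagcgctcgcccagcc
Lama5: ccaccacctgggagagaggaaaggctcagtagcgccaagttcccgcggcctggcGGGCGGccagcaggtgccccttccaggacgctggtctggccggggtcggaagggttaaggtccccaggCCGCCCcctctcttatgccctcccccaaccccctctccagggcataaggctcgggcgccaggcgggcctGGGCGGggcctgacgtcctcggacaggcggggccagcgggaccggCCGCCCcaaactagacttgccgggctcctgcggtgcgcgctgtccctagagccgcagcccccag
Lamb1 held 2 copies of the first motif and 1 of CCAAT, and Lama5 held 4 and 0.

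Col4a1 and Col4a2 stand head to head and are transcribed away from each other from a shared promoter region, a known feature of this gene pair. Col4a1 had signals of 15248, 15633 and 16034 in WT_vehicle and of 17628, 16133 and 13697 in WT_RA. KO_vehicle gave 7107, 6756 and 1119, and KO_RA 8234, 8187 and 1697. WT arrays were close to each other, the number-coded KO arrays were lower, and the letter-coded ones were lower still. The difference was -2.04 in vehicle (SE 0.58, adjusted p = 0.0552, 0.00037 blocked) and -1.69 in RA (SE 0.58, adjusted p = 0.121, 0.00212 blocked). The other probe set of Col4a1 passed in vehicle, with -2.21 (adjusted p = 0.038), and had -1.82 in RA (adjusted p = 0.0891).

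For Col4a2 the signals were 7620, 7489 and 7202 in WT_vehicle and 9243, 8432 and 6285 in WT_RA. They were 2718, 2384 and 879 in KO_vehicle and 3198, 3012 and 544 in KO_RA. Again no KO array reached a WT array, and replicate 3 was the lowest. Col4a2 passed in both media, with -2.05 (SE 0.49, adjusted p = 0.0238) and -2.17 (SE 0.49, adjusted p = 0.0144). In runs 1, 2 and 3 it had -3.01, -1.48 and -1.64 in vehicle and -3.49, -1.53 and -1.48 in RA.

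The promoter windows of Col4a1 (GRCm38.p6, chr8:11312777-11313076, minus strand) and Col4a2 (chr8:11312555-11312854, plus strand) share 78 bases, and are shown because both genes were lower in the same arrays. Capitals have the same meaning as above.
Col4a1: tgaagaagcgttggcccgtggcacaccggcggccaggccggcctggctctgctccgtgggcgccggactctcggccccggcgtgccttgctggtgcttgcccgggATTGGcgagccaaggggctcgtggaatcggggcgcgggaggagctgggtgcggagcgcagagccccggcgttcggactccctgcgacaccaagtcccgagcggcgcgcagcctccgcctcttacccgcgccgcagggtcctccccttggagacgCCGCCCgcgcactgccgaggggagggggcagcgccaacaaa
Col4a2: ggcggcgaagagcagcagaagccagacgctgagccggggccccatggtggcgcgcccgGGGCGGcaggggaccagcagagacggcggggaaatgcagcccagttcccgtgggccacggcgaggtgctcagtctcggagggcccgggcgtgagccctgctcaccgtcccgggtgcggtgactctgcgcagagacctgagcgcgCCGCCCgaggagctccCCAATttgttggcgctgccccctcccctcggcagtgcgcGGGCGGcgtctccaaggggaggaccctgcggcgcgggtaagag
Of the 10 genes 7 had such a window in the table, and Lama1, Lamc1 and Nid2 were not among them. GGGCGG or its complement was in 6 of the 7 windows and in 35.7 percent of all 32851 windows. The match in the Col4a1 window and the last in that of Col4a2 are the same site within the shared bases. The 6 windows with a match were 63.7 to 74 percent G and C, above the median of all windows, so these shares are not like for like. CCAAT or its complement was in 4 of 7 and in 37.4 percent of all. The windows of Col4a1 and Col4a2 were 74 and 73.7 percent G and C, and that of Sparc 55.3 percent, where the median of all windows was 52.7 percent. AGGTCA and GGTTCA, half-sites of RA receptors, were in 0 of 7 windows on either strand (16.3 and 10.4 percent of all windows). The GATA factor motif AGATAA was in 0 of 7 too (11.2 percent of all). So was TATAAA, the core of the TATA box (13.6 percent). A match describes the letters of these windows only. The windows of Lamb1, Lama5, Col4a1 and Hspg2 reach more than 50 bases past the annotated gene start and so hold less upstream sequence.

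Nid1 encodes nidogen 1, the linker between laminin and collagen IV. It gave 1792, 2081 and 1725 in WT_vehicle and 2276, 2242 and 1178 in WT_RA. KO_vehicle had 1026, 920 and 711, and KO_RA 973, 1122 and 544. The groups did not overlap, and the KO arrays differed less among themselves than for Lama1. The difference was -1.07 in vehicle (SE 0.27, adjusted p = 0.0281) and -1.10 in RA (SE 0.27, adjusted p = 0.0218), and it stayed between -0.79 and -1.26 in every run and medium. Its next probe set passed in vehicle, with -1.12 (adjusted p = 0.00805), and had -0.70 in RA (adjusted p = 0.103). Nid2, for the related nidogen 2, had 4044 to 6076 in WT_vehicle, 4615 to 7501 in WT_RA, 2669 to 5790 in KO_vehicle and 2554 to 5238 in KO_RA. Its groups overlapped, with differences of -0.23 (adjusted p = 0.761) and -0.59 (adjusted p = 0.39), the second of which passed with the run as a block (0.00212).

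Hspg2, the gene of perlecan, was between 822 and 1031 in WT_vehicle, 789 and 1214 in WT_RA, 421 and 674 in KO_vehicle and 519 and 1000 in KO_RA. WT and KO did not overlap in vehicle and did in RA. Neither -0.63 (SE 0.25, adjusted p = 0.202, 0.0225 blocked) nor -0.53 (adjusted p = 0.325, 0.0574 blocked) passed without the block. Its other probe set, of a type that can match several transcripts, had larger differences of -1.43 and -1.68 (adjusted p = 0.379 and 0.3, 0.0052 and 0.0011 blocked), with signals of 98.6 and 37.4 on the letter-coded KO arrays.

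Sparc encodes osteonectin, a collagen-binding glycoprotein that parietal endoderm secretes. It gave 25672, 26634 and 25364 in WT_vehicle and 25760, 26717 and 24255 in WT_RA. In KO_vehicle it gave 17347, 18498 and 6500 and in KO_RA 18965, 18582 and 7809. WT arrays lay in a narrow range, above every KO array. Its differences of -1.02 (SE 0.34, adjusted p = 0.111) and -0.87 (SE 0.34, adjusted p = 0.195) passed only with the run as a block (0.00279 and 0.00957). The next probe set had -1.17 and -0.87 and passed in vehicle (adjusted p = 0.0165) but not in RA (0.076). The dimmest, also above background, had -0.45 and -0.26 (adjusted p = 0.543 and 0.828, or 0.444 and 0.761 blocked).

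**Figure D2:**
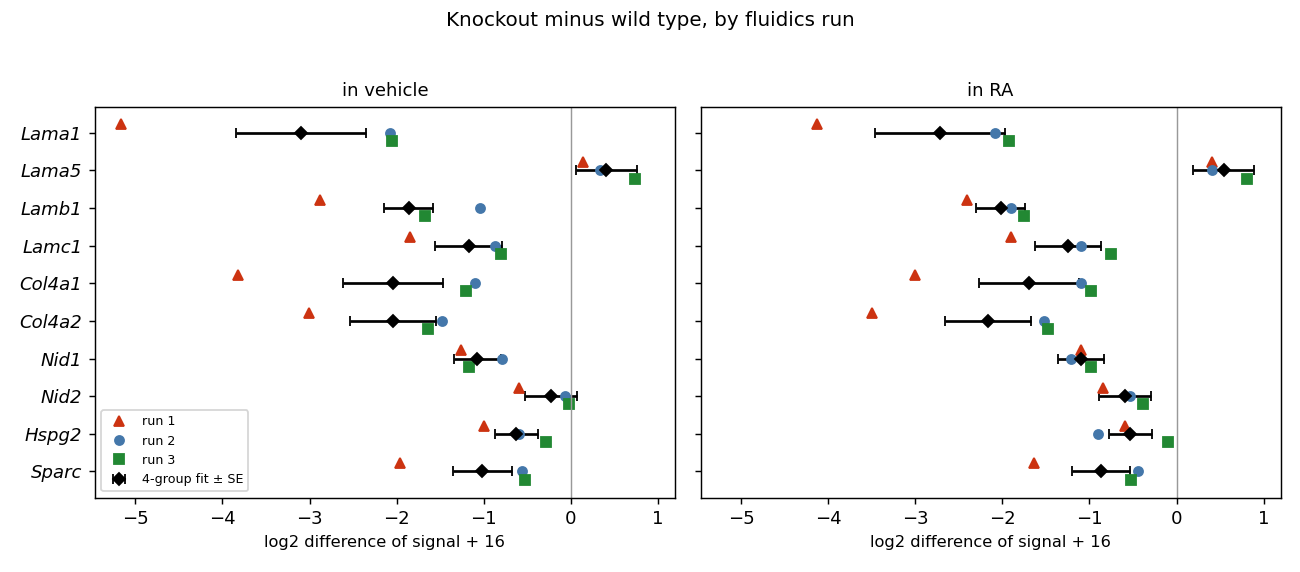
Difference of log2 (signal + 16) between KO and WT for the 10 genes, in vehicle (left) and in RA (right). Black diamonds and bars are the 4-group fit and its SE, and coloured symbols are the differences within each fluidics run. Lama5 alone lies above 0, and run 1 gives the lowest value for all 10 genes in vehicle and for 7 in RA.

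These counts leaned on single arrays. In vehicle 4 genes became 1 without WT_vehicle replicate 1, WT_vehicle replicate 2 or KO_vehicle replicate 3, and 7 without KO_RA replicate 3. In RA 4 became 1 without WT_RA replicate 1 or WT_RA replicate 2 and 2 without KO_RA replicate 3. Among the 8 number-coded arrays alone, a choice made after the data were seen, 7 genes fell in vehicle and 8 in RA, and 1 gene, Lama5, rose in each. In that fit 8.46 percent of all genes fell and 7.11 percent rose in vehicle, and 8.88 percent fell and 8.79 percent rose in RA.

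Letter-coded KO arrays had much lower laminin and collagen IV signals than number-coded ones, which the plot of signals by array shows. A fit chosen after the data were seen took genotype by title code, with RA as a further term, over all 12 arrays. It takes the vehicle and RA arrays of a set as replicates, so its p values are set against the spread of arrays within sets. The letter-coded arrays are all of run 1, and the p values do not measure how sets of samples vary. In this fit KO was lower than WT by 4.10-fold for Lama1 in the number-coded set (4 arrays against 4) and by 25.0-fold in the letter-coded set (2 against 2). For Col4a1 the values were 2.14-fold and 10.6-fold, for Col4a2 2.89-fold and 9.53-fold, for Lamb1 3.01-fold and 6.25-fold, for Lamc1 1.84-fold and 3.66-fold and for Sparc 1.43-fold and 3.48-fold. In the number-coded set 8 of 10 genes were lower and 1 higher (10.1 and 9.06 percent of all genes), and in the letter-coded set 9 were lower and 0 higher (7.9 and 5.6 percent). The difference between the sets was tested as an interaction, and the brightest probe sets of these 6 genes passed, all with the larger fall in the letter-coded set. Other probe sets did not all do so. Those of Lamb1 above background had -0.85 and -0.64 (adjusted p = 0.155 and 0.222), and that of Lamc1 had -0.86 (adjusted p = 0.134). The second probe sets of Col4a1 and Sparc passed, with -1.98 (adjusted p = 9.88e-06) and -1.10 (adjusted p = 0.00551), while the dimmest of Sparc had 0.41 (adjusted p = 0.778). In that test 0.335 percent of all genes were lower and 0.126 percent higher.

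The interaction was largest for Lama1, at -2.61 (SE 0.20, limma adjusted p = 1.63e-07), and for Col4a1, at -2.32 (SE 0.18, adjusted p = 1.63e-07). Col4a2 had -1.72 (adjusted p = 0.000256), Sparc -1.28 (adjusted p = 0.000114), Lamb1 -1.05 (adjusted p = 0.0349) and Lamc1 -0.99 (adjusted p = 0.00363). Nid1 had -0.14 (SE 0.22, adjusted p = 0.869), Lama5 -0.30 (0.715), Hspg2 -0.32 (0.669) and Nid2 -0.47 (0.271), and these 4 did not pass. The other probe set of Hspg2 had a larger value of -1.59, just short of passing (SE 0.35, adjusted p = 0.0536). The second probe sets of Lama5 and Nid1 had -1.04 (0.224) and 0.08 (0.941). In the same fit 10 of 10 genes were lower in letter-coded than in number-coded KO arrays (6.76 percent of all genes lower, 4.69 percent higher), and 5 of 10 in WT arrays (5.96 percent lower, 5.56 percent higher). In WT these 5 were Lama1, Lama5, Lamc1, Nid1 and Nid2, with differences from -0.48 to -0.73, against -0.63 to -3.14 for the 10 genes in KO. Lamc1 had no settled direction in WT, since its other probe set gave 0.52 (adjusted p = 0.0475) there and -0.34 in KO (adjusted p = 0.215). Lama1 and Col4a1 thus gave -3.14 and -2.44 in KO and -0.53 and -0.12 (adjusted p = 0.0188 and 0.719) in WT. Without the intensity trend 0 of the 6 interactions passed, and with arrays centred on their medians 3 did.

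Whether RA changed the same genes within 24 h is the comparison of RA with vehicle in each genotype. By limma 0 of 10 genes passed in WT, where 0.489 percent of all genes rose and 0.335 percent fell, and 0 passed at an unadjusted p under 0.05. In KO 0 of 10 passed too, where 0.137 percent of all genes rose and 0.011 percent fell, and again 0 had an unadjusted p under 0.05. Changes in WT ranged from -0.29 (Lama5) to 0.26 (Nid2), and each of the 10 was smaller than its SE. In KO they ranged from -0.22 (Lamb1) to 0.36 (Col4a1), and 9 were smaller than their SE. The SE, from 0.25 to 0.75, pools the wide spread of the KO arrays. With the run as a block the SE was 0.12 to 0.40 and 0 of 10 passed in either genotype (1.8 percent of all genes rose and 1.56 percent fell in WT, 0.407 and 0.0879 percent in KO). The smallest blocked adjusted p was 0.454 in WT and 0.733 in KO. The arrays of RA and vehicle separated for 0 of 10 genes in WT (10.7 percent of all genes higher, 7.11 percent lower) and for 0 of 10 in KO (5.1 percent higher, 5.83 percent lower). All these counts are of the brightest probe sets. The second of Nid1 was higher on every KO_RA array than on every KO_vehicle array. Its change was 0.48 (limma unadjusted p = 0.0492, adjusted p = 0.838, 0.375 blocked). The second of Sparc was lower on every WT_RA array than on every WT_vehicle array, with -0.18 (adjusted p = 0.984).

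In WT the RA change was lowest in run 1 for all 10 genes, by their brightest probe sets. Lamb1 had -0.65 in run 1 and 0.57 and -0.10 in runs 2 and 3, and Lama1 -0.49, 0.29 and 0.11. Nid2 was higher in RA in all 3 runs, by 0.19, 0.30 and 0.27 (adjusted p = 0.97, 0.454 blocked). Lama5 was lower in all 3, by -0.72, -0.10 and -0.06 (adjusted p = 0.97, 0.654 blocked). In KO the brightest probe sets of Lama1 (0.54, 0.27 and 0.25), Col4a1 (0.59, 0.21 and 0.28) and Sparc (0.26, 0.13 and 0.01) were higher in all 3 runs. Those of Lamb1 and Nid2 were lower. Other probe sets of Sparc and Lamb1 above background varied in direction. The second of Sparc had 0.52, -0.10 and -0.07. For Lamb1 they had 0.53, 0.26 and -0.32, and -0.48, 0.18 and 0.20. The second of Col4a1 was higher in all 3 runs too (0.61, 0.32 and 0.36). The head-to-head partner Col4a2 had -0.68 in run 1 and 0.23 and 0.34 in runs 2 and 3. The difference between the RA changes, tested as an interaction, gave 0 of 10 genes (0 percent of all genes in either direction, and 0 of the 10 at an unadjusted p under 0.05), with values from -0.36 (Nid2) to 0.38 (Lama1) and SEs from 0.35 to 1.06. With the run as a block it was again 0 of 10 (0.044 percent of all genes in each direction). Of the 11 stem cell markers listed further on, 5 fell with RA in WT (0.335 percent of all genes) and 0 in KO (0.011 percent). That list was chosen with earlier results of these data known, so it is no independent check of the values above.

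**Figure D3:**
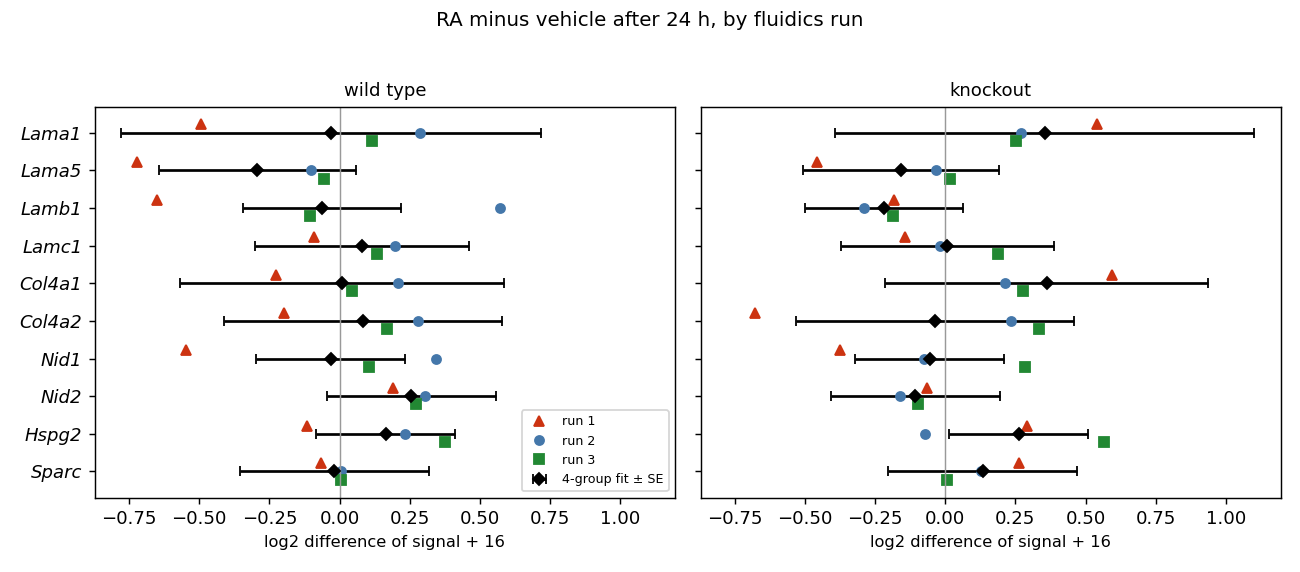
Difference of log2 (signal + 16) between RA and vehicle after 24 h for the 10 genes in WT (left) and KO (right). Black diamonds and bars are the 4-group fit and its SE, and coloured symbols the runs. In WT run 1 is the lowest of the 3 runs for every gene, and all 10 fitted changes are smaller than their SE.

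Other genes of the basement membrane behaved in part like these. The shares of all genes in KO against WT were 4.01 percent lower and 2.41 percent higher in vehicle. In RA they were 4.28 and 3.26 percent. Of 11 other laminin and collagen IV chains asked 10 were measured and 1, Lamb2, had a mean above background. By limma 0 of the 10 were called in KO against WT in either medium, and Col4a5, with the smallest p, had -1.59 in RA (adjusted p = 0.162, or 0.0469 when blocked, which calls it) and 0.53 in vehicle (adjusted p = 0.709). Of 19 other components, such as linkers and crosslinking enzymes, 4 fell in KO in both media and 0 rose, and their median was 0.20 in vehicle and 0.00 in RA. Those 4 were Fbln1, the matrix glycoprotein fibulin 1, with -1.31 (adjusted p = 9.67e-05), Pxdn, whose enzyme crosslinks collagen IV, with -1.44 (adjusted p = 0.00223), Tinagl1, a basement membrane glycoprotein, with -1.95 (adjusted p = 0.00614), and Egflam, which encodes the dystroglycan ligand pikachurin, with -2.54 (adjusted p = 0.0134), all in vehicle. In RA these gave -1.30, -1.34, -1.74 and -2.84. Of 13 receptors for basement membrane proteins 1 fell in both media, the syndecan Sdc4, with -0.96 and -0.94 (adjusted p = 0.0361 and 0.0373). With the run as a block Ddr1, a collagen receptor, was also called in RA, with 0.73 (adjusted p = 0.202, or 0.0249 blocked). The receptor count of 1 in the 4-group fit, which is Sdc4, became 0 in vehicle without KO_vehicle replicate 3 or any 1 of WT_vehicle replicates 1, 2 and 3 and WT_RA replicates 1 and 2. In RA it became 0 without WT_RA replicate 1 or 2 or KO_RA replicate 1 or 3. Without the intensity trend 2 of the 4 components passed in each medium. By limma 0 genes of these 3 lists were called for RA against vehicle in either genotype. With the run as a block 2 were called in WT and 0 in KO. They were the syndecan Sdc1, with -1.27 (adjusted p = 0.157, or 0.000147 blocked), and Fbln1, with 0.55 (adjusted p = 0.238, or 0.0261 blocked).

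Most markers of primitive and parietal endoderm moved with the basement membrane genes. Beside the counts below, 4.01 percent of all genes fell and 2.41 percent rose in KO in vehicle, and 4.28 and 3.26 percent in RA. Of 15 markers of primitive and parietal endoderm 10 fell in KO in vehicle and 11 in RA, 0 rose, and the list median was -1.99 and -2.04. Without WT_RA replicate 1 or 2 the count in RA was 7. In the number-coded set of the title code fit 12 were lower and 1 higher (10.1 and 9.06 percent of all genes). Vim had 9227, 9092 and 9894 in WT_vehicle and 13762, 14202 and 8016 in KO_vehicle. Fst had 141, 83.0 and 134 in WT_vehicle and 217, 145 and 139 in KO_vehicle. These markers thus did not follow the others. Sox17, a transcription factor of primitive endoderm, had 1929, 1904 and 2586 in WT_vehicle, 324, 263 and 44.6 in KO_vehicle and 261, 264 and 71.8 in KO_RA. Dab2, an endocytic adaptor of endoderm, had 10778, 10335 and 8214 in WT_vehicle, 1470, 1563 and 124 in KO_vehicle and 1430, 1610 and 198 in KO_RA. Both genes followed the order of Lama1 and Col4a1, WT above number-coded KO above letter-coded KO. Others did not in vehicle. On KO_vehicle replicates 1, 2 and 3 Foxa2 had 101, 91.6 and 153, Snai1 67.9, 86.4 and 158, and Krt18 164, 250 and 490. By the title code fit 7 of the 15 were lower in letter-coded than in number-coded KO arrays, and 1 was higher. Of all genes 6.76 percent were lower there and 4.69 percent higher. The interaction with genotype called 3 of the 15, all lower (0.335 percent of all genes). Cubn, a receptor of visceral endoderm, had 11610, 12038 and 8428 in WT_vehicle and 1175, 1302 and 56.9 in KO_vehicle. Of that list 2 fell in each medium, and 1 without KO_vehicle replicate 3 in vehicle or without WT_RA replicate 1 or 2 or KO_RA replicate 3 in RA. The sum over the 9 measured visceral endoderm markers was 11734 to 15421 in WT_vehicle and 1859 to 3400 in KO_vehicle. Cubn made up most of it, and without Cubn the sums were 3306 to 3548 and 1802 to 2226. Lrp2, an endocytic receptor, had 2190, 2211 and 1530 in WT_vehicle and 1925, 1576 and 626 in KO_vehicle. Rbp4 was highest, at 330, on KO_vehicle replicate 3, and Afp, Apoa1 and Apob were at or below background on all 12 arrays. Krt8, a keratin of early endoderm, was low on all KO arrays, at 344, 327 and 477 in KO_vehicle, without a lower value in the letter-coded one. In bulk RNA fewer cells of a type and less RNA per cell cannot be told apart, and the part of endoderm-like cells in the result was not tested.

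Stem cell markers did not fall as a list with the basement membrane genes. Among all genes 2.41 percent rose and 4.01 percent fell in KO in vehicle, and 3.26 and 4.28 percent in RA. Of 11 markers 4 rose and 2 fell in KO in vehicle, and 6 rose and 2 fell in RA, with medians of 0.29 and 0.50. With arrays centred on their medians 2 were called in vehicle. Pou5f1 had signals between 10843 and 22271 on the 12 arrays, and the letter-coded KO arrays were at 16376 and 19002. Of 12 fibroblast markers 2 had a mean above background and 0 were called in either medium, and their sum was 837 to 1030 in WT_vehicle and 811 to 1240 in KO_vehicle. Col1a1, Postn, Fap and S100a4 were at or below background on all arrays. Of 9 endothelial markers 3 had a mean above background. Pecam1, also a surface protein of mouse stem cells, rose by 1.21 (adjusted p = 0.00331) in vehicle, and by 1.26 (adjusted p = 0.00177) in RA. Tek rose by 1.85 (adjusted p = 0.0289) in vehicle, from a mean signal below background in WT, and had 1.02 in RA (adjusted p = 0.303). Cdh5, whose mean lay below background, fell by 1.96 in RA (adjusted p = 0.0416). With centred arrays 0 endothelial markers were called in vehicle, and 1 was called without WT_vehicle replicate 2 or 3 or KO_vehicle replicate 1 or 3.

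**Figure D4:**
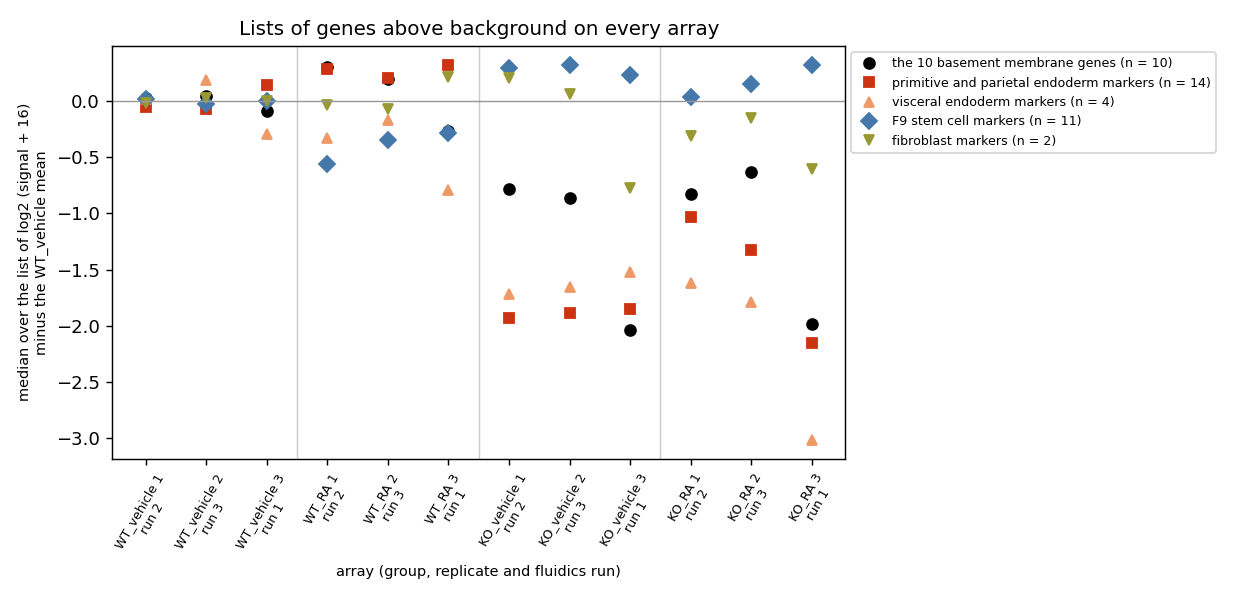
Median over the genes of a list of log2 (signal + 16) on each array minus the WT_vehicle mean, for genes with a mean above background. The 10 basement membrane genes lie at -0.63 to -0.86 on the number-coded KO arrays and at -2.04 and -1.98 on the letter-coded ones, and endoderm markers are below 0 on all KO arrays.

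The genes whose signals ran most like those of the 10 were named by Pearson's r over the 12 arrays among the 10879 other genes above background, as a description. The arrays fall into WT, number-coded KO and letter-coded KO, so r mostly reflects these sets. Nearest to Lama1 were Cubn (r = 0.994), Col4a1 (0.992) and Dab2 (0.990). Nearest to Col4a1 were Sparc (0.996), Lama1 (0.992) and the mitochondrial enzyme gene Glud1 (0.990), and Col4a2 was in place 17. Lamc1 had Lama1, Cubn and Col4a2 as its nearest genes, and Col4a2 had Cubn, Lama1 and Lamc1. Lamb1 was nearest to Htra1, a secreted protease gene, and to Sox17, with Lama1 in place 92. Nid1 and Nid2 had r = 0.769 with each other. Lama5 stood apart, with r between -0.202 and 0.478 to the other 9 genes, and was nearest to Trim71 (0.945), a stem cell RNA-binding protein gene.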

How the data were processed

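RNA of 12 F9 cell samples was hybridised to Affymetrix Mouse430_2 arrays, per the file headers. Per the submitters' processing notes the values come from MAS5. What the authors deposited is 1 intensity per probe set and array, not log transformed. The MAS5 version and masking are not given in the sources used here. The deposited values show scaling of each array to a mean of 500 after trimming 2% at each end. The deposited scanner files, of the other kind with text only, served to find the 3 fluidics runs of 4 arrays (same hybridization time). Replicate numbers follow the order of deposition and pair nothing. The run does, with 1 array of every group.

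A pseudocount of 16 was added before taking log2, and limma 3.58.1 (R 4.3.3) was fitted to all arrays (intensity trend, 4 groups, 8 residual degrees of freedom, 6 with the run as a block). 64 control probe sets were left out, and Benjamini-Hochberg adjusted p values over 45037 probe sets were held against 0.05. 34945 probe sets had 1 symbol, 932 several and 9160 none. As background level served the percentile 95 of 86 probe sets for chemosensory receptors of nose and tongue (log2 6.61, signal 81.6). The procedure was tested on simulated data. The named genes were the 10 members, up to 4 called genes of each further basement membrane list (else that with the smallest p), and the 3 genes most like each member, of which some are given. Genes of the marker lists and the title code fit were chosen after their values were seen. All members and lists were chosen with earlier results of these data known. Promoter sequences are RefSeq's (GRCm38.p6). The alternatives tried were a pseudocount of 1 or 64, quantile-normalized or median-centred arrays, probe sets above background alone, weights for arrays, a fit without the trend, fits of just the compared groups, a block for the run, a threshold of 0.01, 1 probe set per gene, other probe sets, leaving out each array and only number-coded arrays.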

Additional observations from a re-analysis of the deposited data

Results flagged for a closer look

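The KO minus WT difference was larger in the letter-coded than in the number-coded set for the brightest probe set of 6 of the 10 genes, tested as the interaction of genotype and title code by limma over 12 arrays. The interaction was -2.61 for Lama1, -2.32 for Col4a1, -1.72 for Col4a2, -1.28 for Sparc, -1.05 for Lamb1 and -0.99 for Lamc1. Of the other probe sets above background, those of Lamb1 and Lamc1 and 1 of Sparc did not pass this test. For each of the 6 probe sets both letter-coded KO arrays were below all 4 number-coded KO arrays. The same held for the brightest probe sets of Lama5, Nid1, Nid2 and Hspg2, which did not pass, so this order does not set the 6 apart. The fit was chosen after the data were seen, and the set of samples, the fluidics run and the letter code cannot be told apart. Its p values are set against the spread of arrays within sets and do not measure how sets vary.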

How the results depend on the processing

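The numbers of the 10 genes called for RA against vehicle and for the difference of the RA changes were 0 under every alternative run. For KO against WT, main counts of 4 in vehicle and 4 in RA became 8 and 8 with the run as a block, 8 in RA with KO_vehicle replicate 3 left out as well, 8 and 9 on number-coded arrays, 1 and 1 without the intensity trend, 1 and 1 at a threshold of 0.01, and 2 in RA with centred arrays. Leaving out 1 array gave 1 to 7 in vehicle and 1 to 6 in RA. The 6 interactions with the title code became 0 without the trend and 3 with centred arrays, and 5 to 6 without 1 array. The cause was not tested. No called difference of the 4-group fit changed its direction. In the title code fit other probe sets gave the opposite sign to a called one for the interaction of Sparc (0.41), for letter minus number in KO of Lama5 (0.20), Nid1 (0.66) and Sparc (0.62), and in WT of Lama5 (0.40), Nid1 (0.45), Lamc1 (0.52, itself called) and Lamb1 (-0.50, called where the main 0.09 was not). Of single-gene values called neither way, 33 of 262 changed sign for RA in WT, 44 of 262 in KO and 53 of 252 for the difference of these changes. For KO against WT, with called and uncalled values counted together, 1 of 262 changed sign in vehicle (Nid2, 0.13 without KO_vehicle replicate 3) and 0 of 262 in RA. The run as a block is the paired analysis, since each run held 1 array of every group.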
